A study of Mus musculus with 24 samples.

Results

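Levels of 10 genes that release calcium inside skeletal muscle fibres or take it up again were followed in mouse gastrocnemius, the large calf muscle. They were Ryr1, Cacna1s, Jph1, Casq1, Casq2, Atp2a1, Atp2a2, Sln, Pln and Pvalb, taken as the rows of the deposited count table with these gene names. All 10 were found among its 43346 genes, and all 10 passed the filter on low counts that left 17773 genes for testing.

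Poly(A) RNA was sequenced from C57BL6 mice in 4 groups of 6: female LLC1, female vehicle, male LLC1 and male vehicle. LLC1 cells come from a Lewis lung carcinoma of the mouse and serve to model the muscle wasting that accompanies tumours. These cells, or phosphate-buffered saline as vehicle, were given under the skin at 7 weeks of age, and tumours had 3 weeks to grow. All libraries of a group share a sequencing lane that no other group used, and an effect of lane and one of group cannot be told apart. Titles number the libraries within each group (1-4, 2-5 and so on). They were treated as separate mice on that basis, and p-values therefore reflect only how far these libraries spread.

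A nerve impulse that reaches a muscle fibre runs inward along the transverse tubules, where the voltage sensor Cav1.1 opens the ryanodine receptor of the neighbouring sarcoplasmic reticulum. Calcium leaves the reticulum through that channel, having been held there by calsequestrin, and starts contraction. It is then bound by parvalbumin in the cytosol of fast fibres and pumped back by the SERCA ATPases, which small membrane peptides restrain. Fast and slow fibres use different forms of several of these proteins, and the gastrocnemius is made mostly of fast fibres.

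Libraries held 26.2 to 47.4 M counts (mega-counts). Skeletal muscle markers were high throughout, with Acta1 at 13690 CPM or more and Ckm at 11570 CPM or more in every library, where CPM is counts per mega-count of the scaled library size. Of 8 cardiac muscle markers, Myl7 and Nppb had a median of 0 CPM over all libraries, while Myh6, the cardiac alpha myosin heavy chain, had group medians of 26.2 to 66.7 CPM. The cardiac sum was 52.7 to 120 CPM in female LLC1 and 34.6 to 131 CPM in female vehicle mice, and 17.8 to 77.4 CPM in male LLC1 and 19.9 to 72.4 CPM in male vehicle mice. Of the 5 tested, edgeR, DESeq2, limma-voom and limma-voom with sample weights called 0 with LLC1 in either sex, with 1 at an unadjusted p under 0.05 in edgeR in each. The 8 neutrophil markers tested were all higher with LLC1 in both sexes. Their level, summed over the 10 listed, was 47.7 to 145 CPM in female LLC1 and 0.908 to 2.04 CPM in female vehicle mice. In males it was 48.8 to 148 CPM with LLC1 and 0.750 to 2.06 CPM with vehicle. With vehicle sums this low, some of these markers can have passed the filter on low counts only through the LLC1 groups. The count of 8 is partly set by that filter and is not read as support. Mpo was the 1 neutrophil marker with a median of 0 CPM over all libraries. All 7 erythroid markers were higher as well, at summed levels of 1234 to 19989 CPM in female LLC1 and 474 to 1029 CPM in female vehicle mice. In males these were 1211 to 4295 CPM with LLC1 and 426 to 1083 CPM with vehicle. Of 6 fibro-adipogenic progenitor markers, 3 were lower and 1 higher in females, and 4 were lower and 1 higher in males. Their summed level was 637 to 1469 CPM in female LLC1 and 1007 to 2487 CPM in female vehicle mice, and 884 to 1102 CPM in male LLC1 and 1441 to 3004 CPM in male vehicle mice. Of 7 smooth muscle and pericyte markers, 1 was lower in females and 4 were lower in males, at sums of 423 to 570 CPM in female LLC1 and 508 to 582 CPM in female vehicle mice, and 363 to 522 CPM in male LLC1 and 509 to 650 CPM in male vehicle mice. Of 10 macrophage and monocyte markers, 2 were higher in males, at sums of 234 to 306 CPM with LLC1 and 181 to 311 CPM with vehicle. In females edgeR called 0 of these 10, with 2 at an unadjusted p under 0.05, DESeq2 called 1 higher, limma-voom 0 and limma-voom with sample weights 3 higher, at sums of 141 to 353 CPM with LLC1 and 156 to 329 CPM with vehicle. Of 6 endothelial cell markers, edgeR called 2 higher in females, and 2 higher and 2 lower in males. Of 6 tendon cell markers, 2 were lower in males. Of 6 skeletal muscle markers, 1 was higher in females and 1 lower in males. Beside these counts, 4.97% of all genes were called higher and 4.95% lower in females, and 19.5% and 16.8% in males. The 2 of 10 macrophage and monocyte markers higher in males were near that share. The part that the other cell types play in the member values was not tested. In bulk tissue, fewer cells of a type and less RNA per cell cannot be told apart.

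With LLC1, Casq1 and Pvalb fell in both sexes, though the female call of Casq1 was lost without either of 2 libraries. Casq1, which stores calcium in the reticulum, was at 0.552 of its vehicle level in females and 0.484 in males, and Pvalb, which buffers it in the cytosol, at 0.646 and 0.693. The fast pump Atp2a1 and the release channel Ryr1 did not pass the test in either sex. In females 2 of the 10 members were called, both lower, where called means an adjusted p under 0.05 in the quasi-likelihood test of edgeR, adjusted over all genes tested. Of all genes, 9.92% were called in females, and 4.95% were called lower. In males 4 of the 10 were called, again all lower, against 36.3% of all genes called in either direction and 16.8% called lower. The male share of members, taken over both directions, was near that background. The median log2 fold change of the members was 0.07 in females and -0.09 in males, beside -0.01 and 0.01 over all genes.

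**Figure D1:**
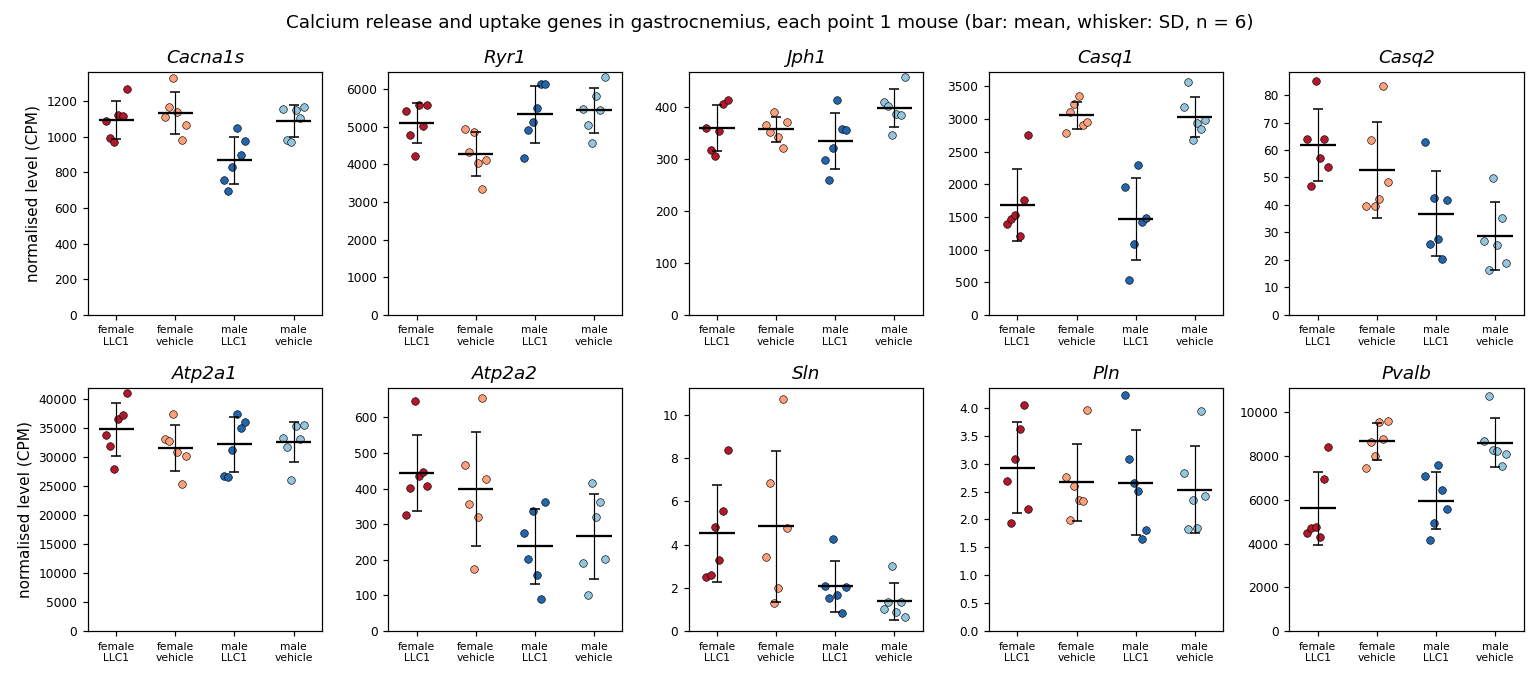
Normalised level in CPM (vertical axis, from 0) of each of the 10 genes in female LLC1, female vehicle, male LLC1 and male vehicle mice. Each point is 1 mouse, the bar is the mean and the whisker the SD (n = 6). The LLC1 points of Casq1 lie below the vehicle points in both sexes, and Sln is spread widely in every group.

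The level per exon length, in CPM per kilobase averaged over the 24 libraries, put Atp2a1 first at 9409 and Pvalb next at 6934, ranks 8 and 11 among all genes tested. Casq1 followed at 1183, Ryr1 at 328, Cacna1s at 160, Jph1 at 72.4 and Atp2a2 at 63.6. The lowest were Casq2 at 16.5, Sln at 6.22 and Pln at 1.09. Between neighbours, Pvalb and Casq1, Ryr1 and Cacna1s, and Cacna1s and Jph1 had ranges over libraries that did not overlap. Atp2a1 stood above Pvalb in 19 of 24 libraries, Casq1 above Ryr1 in 23 and Jph1 above Atp2a2 in 16, so Jph1 and Atp2a2 were the pair least apart. The exon length of Sln in the table is 515 bases, against 1318 bases in the GENCODE M21 annotation. For Ryr1 these lengths are 15371 and 21838 bases, for Atp2a2 5293 and 6081, and for Pln 2480 and 2759. With the M21 lengths Sln was at 2.43, Ryr1 at 231, Atp2a2 at 55.4 and Pln at 0.978 CPM per kilobase. The order of the 10 averages was the same. The ranges and library counts above hold for the lengths of the table. With the M21 length the range of Ryr1 reaches into that of Cacna1s.

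**Figure D2:**
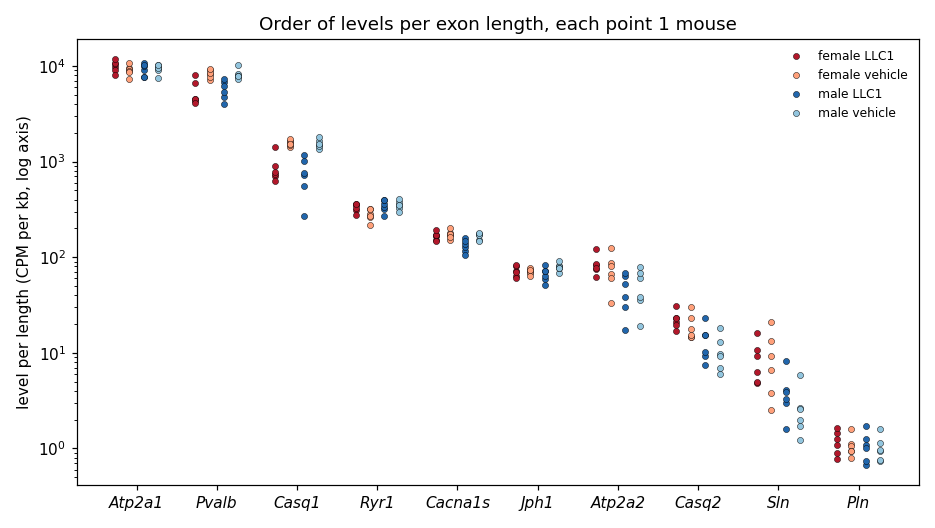
Level per exon length of each gene in CPM per kilobase (vertical log axis), 1 point per mouse, with the groups side by side in the order female LLC1, female vehicle, male LLC1 and male vehicle. The fast-fibre pump Atp2a1 and the buffer Pvalb lie highest, and Sln and Pln lie lowest.

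The calsequestrins hold calcium inside the reticulum, Casq1 being the main form of skeletal muscle and Casq2 that of heart, which slow fibres make beside Casq1. Casq1 (ENSMUSG00000007122, mm10 chromosome 1, 172209894 to 172219868) was measured at 1210, 1495 and 2752 CPM in female LLC1 mice (lowest, median, highest) and at 2785, 3025 and 3348 CPM in female vehicle mice. In males it was at 531, 1457 and 2298 CPM with LLC1 and at 2675, 2955 and 3569 CPM with vehicle. All 6 LLC1 mice lay below all 6 vehicle mice in each sex. Casq1 was the 1 member of 10 whose groups did not overlap, in females and in males, beside 6.55% of all genes in females and 10.3% in males. Its mean was 1684 ± 553 CPM in female LLC1 and 3053 ± 212 CPM in female vehicle mice, and 1466 ± 625 CPM in male LLC1 and 3029 ± 312 CPM in male vehicle mice (SD, n = 6 each). The log2 fold change was -0.86 ± 0.23 in females (SE, edgeR adjusted p = 0.0184) and -1.05 ± 0.23 in males (edgeR adjusted p = 0.00136). The female call was lost without female LLC1 mouse 1-4 (edgeR adjusted p = 0.0513) or 2-3 (0.0637), and each of these omissions left 1 member called in females. The male call kept an adjusted p under 0.05 in all the settings tried, from 1.92e-05 to 0.0133. The coefficient of variation of Casq1 was 32.8% in female LLC1 and 6.93% in female vehicle mice, and 42.7% in male LLC1 and 10.3% in male vehicle mice, a difference in spread that was not tested.

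Casq2 (ENSMUSG00000027861, mm10 chromosome 3, 102086415 to 102146514) was not called with LLC1 in either sex. It was at 46.8, 60.5 and 85.0 CPM in female LLC1 and at 39.7, 45.2 and 83.2 CPM in female vehicle mice (lowest, median, highest). Male mice had 20.5, 34.8 and 62.8 CPM with LLC1 and 16.4, 26.1 and 49.8 CPM with vehicle. The groups overlapped in both sexes. The log2 fold change was 0.23 ± 0.27 in females and 0.36 ± 0.27 in males (edgeR adjusted p = 0.650 and 0.323), with 95% intervals of -0.34 to 0.79 and -0.22 to 0.93.

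The share of Casq2 in the calsequestrin transcripts, taken per exon length within each library, was 2.73 ± 0.867% in female LLC1 and 1.23 ± 0.433% in female vehicle mice (SD, n = 6 each). It was 2.02 ± 0.959% in male LLC1 and 0.696 ± 0.354% in male vehicle mice. Casq1 makes up nearly all of the sum, so its fall by itself raises this share. The share is therefore not a result apart from the fall of Casq1, and Casq2 itself was not called. In females 5 of 6 LLC1 mice lay above all vehicle mice, and mouse 2-5, at 1.38%, lay among them. In males 4 of 6 lay above, and mice 2-2 and 2-4, at 0.854% and 1.01%, did not. The difference of 1.5 percentage points in females had an exact two-sided permutation p of 0.00649, and that of 1.32 points in males an exact p of 0.0152. Adjusted over the 9 share and ratio tests made, these were 0.0584 and 0.0682, so neither passed. The smallest p that 6 mice against 6 allow is 0.00216. Leaving out female LLC1 mouse 2-5 (1.77 points, adjusted exact p = 0.0195) or female vehicle mouse 1-4 (1.43 points, 0.0455) brought the female difference past the threshold. That of males passed without male LLC1 mouse 2-2 (1.55 points, adjusted exact p = 0.0292) or 2-4 (1.52 points, 0.0292) or male vehicle mouse 1-3 (1.44 points, 0.0455). The LLC1 mice left out here are those that lay among the vehicle mice, and male vehicle mouse 1-3 had the highest share of its group. Leaving out any of these could only widen the difference, so these passes add no support.

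**Figure D3:**
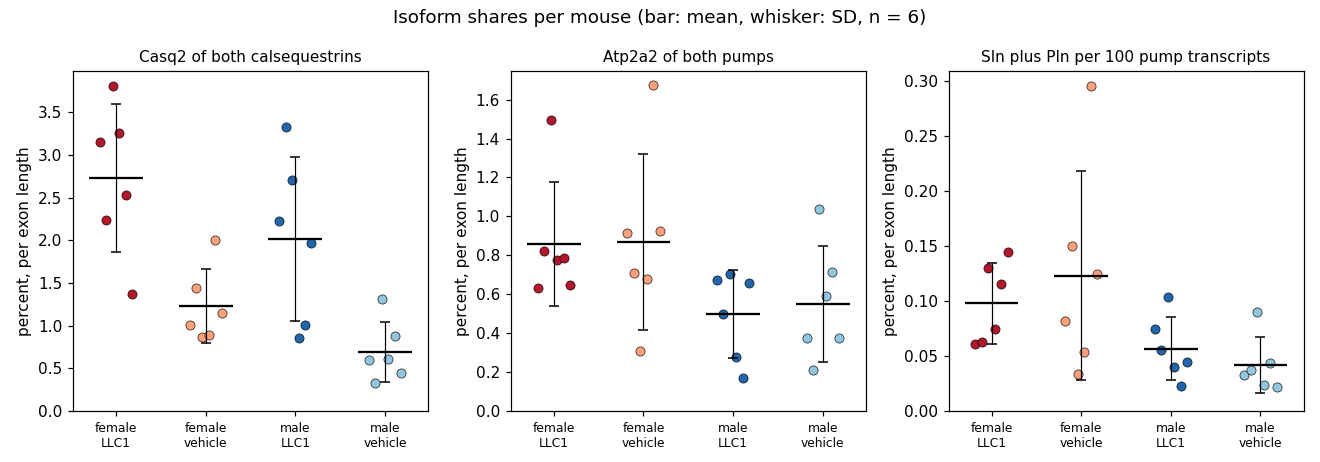
Shares per exon length in percent (vertical axes, from 0), 1 point per mouse, for Casq2 of both calsequestrins, Atp2a2 of both pumps, and Sln plus Pln per pump transcripts. Bars are means and whiskers SD (n = 6), and the Casq2 share is the panel in which most LLC1 points lie above the vehicle points.

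Parvalbumin, encoded by Pvalb (ENSMUSG00000005716, mm10 chromosome 15, 78191114 to 78206400), binds calcium in the cytosol of fast fibres and speeds their relaxation. Pvalb was at 4322, 4743 and 8408 CPM in female LLC1 and at 7472, 8719 and 9617 CPM in female vehicle mice (lowest, median, highest). In males it was at 4178, 6022 and 7595 CPM with LLC1 and at 7567, 8261 and 10771 CPM with vehicle. In each sex 5 of 6 LLC1 mice lay below every vehicle mouse. The exceptions were female LLC1 mouse 2-5 at 8408 CPM and male LLC1 mouse 2-2 at 7595 CPM, each also the highest of its group for Casq1. Pvalb fell by 0.63 ± 0.16 on the log2 scale in females (SE, edgeR adjusted p = 0.0117) and by 0.53 ± 0.16 in males (0.0107). These calls were kept without any single library.

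The promoters of Casq1 and Pvalb, the members that fell in both sexes, and of Casq2 are printed for comparison, from 250 bases before to 50 bases after the start of transcription, as given by RefSeq on GRCm38.p6 (mm10). Capitals mark the E-box CANNTG and matches to the MEF2 consensus, searched on both strands, with no overlap between them. The Casq1 promoter, at chr1:172219846-172220145 on the minus strand, held 2 E-boxes, 189 and 61 bases before the start. The Pvalb promoter at the upstream of its 2 starts, chr15:78206351-78206650 on the minus strand, held no E-box and 1 MEF2 match 170 bases before the start. The window at the other Pvalb start, chr15:78204188-78204487, is not printed. It held the reverse, no MEF2 match and 2 E-boxes, 1 of them 105 bases before that start and 1 after it. The Casq2 promoter, at chr3:102086165-102086464 on the plus strand, held E-boxes 194 and 46 bases before the start and a MEF2 match 59 bases before it.
Casq1: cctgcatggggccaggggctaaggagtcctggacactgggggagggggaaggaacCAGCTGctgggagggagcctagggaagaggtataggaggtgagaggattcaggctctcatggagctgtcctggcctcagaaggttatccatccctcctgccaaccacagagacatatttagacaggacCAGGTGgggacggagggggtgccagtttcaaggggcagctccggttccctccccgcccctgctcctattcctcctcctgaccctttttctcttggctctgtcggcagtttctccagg
Pvalb: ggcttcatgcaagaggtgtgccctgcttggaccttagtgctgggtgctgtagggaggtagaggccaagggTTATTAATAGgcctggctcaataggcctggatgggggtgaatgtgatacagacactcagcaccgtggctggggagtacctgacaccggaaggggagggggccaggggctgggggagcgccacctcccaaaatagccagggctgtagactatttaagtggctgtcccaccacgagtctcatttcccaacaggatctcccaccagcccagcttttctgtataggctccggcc
Casq2: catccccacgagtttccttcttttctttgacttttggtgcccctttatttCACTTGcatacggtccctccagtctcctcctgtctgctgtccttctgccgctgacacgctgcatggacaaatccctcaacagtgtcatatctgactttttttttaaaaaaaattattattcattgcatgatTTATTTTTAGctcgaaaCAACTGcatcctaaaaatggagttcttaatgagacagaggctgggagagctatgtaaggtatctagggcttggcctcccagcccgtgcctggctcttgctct

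Of the 10 members, 7 had a promoter in that table. An E-box was found in 72.3% and a MEF2 match in 3.19% of the 32851 promoters of the same length, so a window with E-boxes is the common case. The NFAT core GGAAA, present in 61.3% of promoters, was found once in the printed Pvalb window and once in that of Casq2. It was not in the letters of the Casq1 window or of the other Pvalb window. The FoxO core GTAAACA, present in 3.65%, was in none of the windows of the 7 members. These are matches of letters and do not show a bound site.

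Among the proteins of the triad, where tubule and reticulum meet, Cacna1s encodes the voltage-sensing subunit of Cav1.1, Ryr1 the release channel and Jph1 the junctophilin that ties both membranes together. Cacna1s (ENSMUSG00000026407, mm10 chromosome 1, 136052750 to 136119822) was at 696, 864 and 1049 CPM in male LLC1 and at 970, 1129 and 1171 CPM in male vehicle mice (lowest, median, highest). In males 4 of 6 LLC1 mice lay below every vehicle mouse, and mice 2-2 and 2-5 lay among them. Cacna1s fell by 0.33 ± 0.10 on the log2 scale in males (SE, edgeR adjusted p = 0.0102). In females it was at 972, 1102 and 1270 CPM with LLC1 and at 984, 1127 and 1334 CPM with vehicle, and the groups overlapped almost fully. The log2 fold change there was -0.05 ± 0.10 (edgeR adjusted p = 0.781, 95% interval -0.25 to 0.15).

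Jph1 (ENSMUSG00000042686, mm10 chromosome 1, 16964560 to 17097889) was at 259, 338 and 412 CPM in male LLC1 and at 345, 394 and 457 CPM in male vehicle mice (lowest, median, highest). The male groups overlapped, with 3 of 6 LLC1 mice below every vehicle mouse. Jph1 fell by 0.25 ± 0.10 on the log2 scale in males (SE, edgeR adjusted p = 0.0459), which is close to the threshold. The call was lost without any 1 of 9 libraries, male LLC1 1-4 (0.0882), 1-5 (0.123), 2-1 (0.0830) and 2-4 (0.0515) and male vehicle 1-1 (0.0761), 1-2 (0.0683), 1-4 (0.0588), 2-4 (0.0578) and 2-5 (0.114), as edgeR adjusted p. It was also lost with no filter on low counts (0.0690) and with the male libraries fitted alone (0.0796). In females Jph1 was at 306, 356 and 413 CPM with LLC1 and at 320, 359 and 390 CPM with vehicle, with a log2 fold change of 0.01 ± 0.10 (edgeR adjusted p = 0.962).

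Ryr1 (ENSMUSG00000030592, mm10 chromosome 7, 29003340 to 29125151) was at 4234, 5217 and 5593 CPM in female LLC1 and at 3353, 4226 and 4930 CPM in female vehicle mice (lowest, median, highest). In females 4 of 6 LLC1 mice lay above every vehicle mouse, yet the log2 fold change of 0.26 ± 0.11 did not pass (edgeR unadjusted p = 0.0239, adjusted p = 0.127). It passed when libraries were scaled by their size alone (adjusted p = 0.0487) and with limma-voom and sample weights (0.0395). In males Ryr1 was at 4174, 5316 and 6153 CPM with LLC1 and at 4582, 5457 and 6315 CPM with vehicle, and the log2 fold change was -0.03 ± 0.11 (edgeR adjusted p = 0.856).

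SERCA pumps return calcium to the reticulum, Atp2a1 encoding SERCA1 of fast fibres and Atp2a2 encoding SERCA2 of slow fibres and heart. Neither was called with LLC1. Atp2a1 (ENSMUSG00000030730, mm10 chromosome 7, 126445858 to 126463108) was at 27996, 35234 and 41102 CPM in female LLC1 and at 25282, 31780 and 37470 CPM in female vehicle mice (lowest, median, highest). Male mice had 26594, 33135 and 37474 CPM with LLC1 and 26118, 33224 and 35567 CPM with vehicle. The groups overlapped in both sexes. The log2 fold change was 0.14 ± 0.11 in females and -0.02 ± 0.11 in males (edgeR adjusted p = 0.467 and 0.931), with 95% intervals of -0.09 to 0.37 and -0.25 to 0.22.

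Atp2a2 (ENSMUSG00000029467, mm10 chromosome 5, 122442702 to 122502225) was at 326, 421 and 645 CPM in female LLC1 and at 175, 391 and 654 CPM in female vehicle mice (lowest, median, highest). Among males the values were 90.7, 239 and 362 CPM with LLC1 and 101, 262 and 416 CPM with vehicle. The groups overlapped in both sexes. The log2 fold change was 0.15 ± 0.34 in females and -0.16 ± 0.34 in males (edgeR adjusted p = 0.828 and 0.745). The share of Atp2a2 in the pump transcripts per exon length was 0.859 ± 0.320% in female LLC1 and 0.868 ± 0.454% in female vehicle mice, and 0.497 ± 0.226% in male LLC1 and 0.551 ± 0.299% in male vehicle mice (SD, n = 6 each). Neither difference passed (adjusted exact permutation p = 0.972 and 0.818).

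Sln and Pln encode sarcolipin and phospholamban, small membrane peptides that bind SERCA pumps and restrain them. Sln (ENSMUSG00000042045, mm10 chromosome 9, 53850251 to 53853844) was at 2.51, 4.04 and 8.39 CPM in female LLC1 and at 1.30, 4.10 and 10.7 CPM in female vehicle mice (lowest, median, highest). In males it was at 0.818, 1.85 and 4.25 CPM with LLC1 and at 0.629, 1.19 and 3.03 CPM with vehicle. These levels rest on 19 to 470 counts per library, and the groups overlapped in both sexes. The log2 fold change was -0.11 ± 0.44 in females and 0.57 ± 0.50 in males (edgeR adjusted p = 0.906 and 0.386). The 95% interval in males was -0.46 to 1.60, so a rise and a decrease both lay within the error.

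Pln (ENSMUSG00000038583, mm10 chromosome 10, 53337686 to 53345999) averaged 2.93 ± 0.820 CPM in female LLC1 and 2.67 ± 0.686 CPM in female vehicle mice, and 2.66 ± 0.934 CPM in male LLC1 and 2.54 ± 0.784 CPM in male vehicle mice (SD, n = 6 each). All groups overlapped, and neither comparison was called (log2 fold change 0.14 ± 0.23 and 0.06 ± 0.23, edgeR adjusted p = 0.758 and 0.857). The library kit keeps no record of strand. Cep85l, on the opposite strand, overlaps 5.11% of the Pln exons and has 23.3 times its counts. Gm47644, also on the opposite strand and not analysed here, overlaps 59.6% of the Pln exons, so the Pln level is uncertain. Sln plus Pln per pump transcript, per exon length, was 0.0979 ± 0.0366% in female LLC1 and 0.123 ± 0.0947% in female vehicle mice, and 0.0566 ± 0.0285% in male LLC1 and 0.0416 ± 0.0252% in male vehicle mice (SD, n = 6 each). Neither difference passed (adjusted exact permutation p = 0.818 and 0.510). With the exon lengths of GENCODE M21 the ratio was 0.0442 ± 0.0146% in female LLC1 and 0.0540 ± 0.0375% in female vehicle mice, and 0.0283 ± 0.0130% in male LLC1 and 0.0218 ± 0.0107% in male vehicle mice, and again neither difference passed (0.818 and 0.526).

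**Figure D4:**
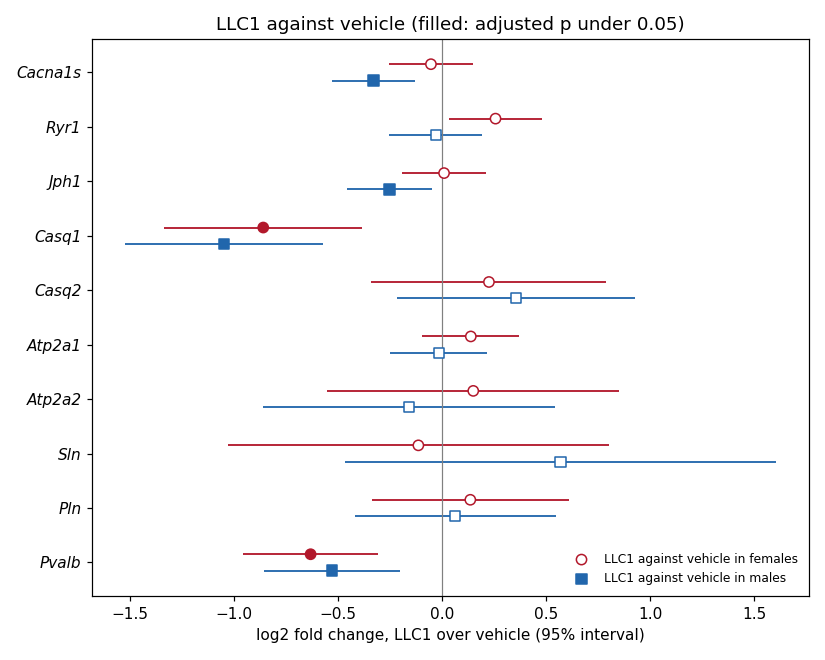
Log2 fold change of LLC1 over vehicle (horizontal axis) for each gene, with 95% intervals, as circles for females and squares for males. Filled marks have an edgeR adjusted p under 0.05: Casq1 and Pvalb in females, and Casq1, Pvalb, Cacna1s and Jph1 in males.

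Whether LLC1 acted differently on these genes in the sexes was tested as the male minus the female log2 fold change. In edgeR 0 of the 10 members passed, with 0 at an unadjusted p under 0.05, and DESeq2, limma-voom and limma-voom with sample weights also called 0 of them. Of all genes, edgeR called 0%, with 2191 at an unadjusted p under 0.05, while DESeq2 called 57 genes, limma-voom 0 and limma-voom with sample weights 3. For Cacna1s and Jph1, called in males and not in females, the differences were -0.28 ± 0.14 and -0.26 ± 0.14 (SE, edgeR adjusted p = 0.412 and 0.434). Their 95% intervals were -0.56 to 0.01 and -0.55 to 0.03. For Casq1 the difference was -0.19 ± 0.32 and for Pvalb 0.10 ± 0.22 (edgeR adjusted p = 0.826 and 0.868).

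Between vehicle mice of the sexes 1 member passed, the pump inhibitor Sln, with a lower level in males. Sln, at 0.629, 1.19 and 3.03 CPM in male vehicle and 1.30, 4.10 and 10.7 CPM in female vehicle mice, fell by 1.82 ± 0.48 on the log2 scale in males relative to females (SE, edgeR adjusted p = 0.0246). In males 3 of 6 vehicle mice lay below every female vehicle mouse. That made 1 of 10 members called, against 6.23% of all genes called in either direction and 2.95% called lower in males. The Sln call was lost without female vehicle mouse 1-3 (edgeR adjusted p = 0.0524) or 2-2 (0.0869), or male vehicle mouse 1-1 (0.0576), 1-2 (0.0513), 1-4 (0.0557), 2-4 (0.0522) or 2-5 (0.0676). It was also lost with no filter on low counts (0.0578) and with the vehicle libraries fitted alone (0.0551).

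Casq2, at a mean of 28.8 ± 12.3 CPM in male vehicle and 52.8 ± 17.4 CPM in female vehicle mice (SD, n = 6 each), had a log2 fold change of -0.88 ± 0.27 that did not pass (edgeR adjusted p = 0.0590). It passed without male vehicle mouse 1-3 (0.0143) and with library size alone (0.0486), DESeq2 (0.0164), limma-voom (0.0359) and limma-voom with sample weights (0.00553). Atp2a2, at 266 ± 120 CPM in male vehicle and 400 ± 160 CPM in female vehicle mice, had a log2 fold change of -0.59 ± 0.34 (edgeR adjusted p = 0.337). Ryr1 ran the other way, at 5443 ± 600 CPM in male vehicle and 4271 ± 582 CPM in female vehicle mice, with a log2 fold change of 0.35 ± 0.11 (edgeR adjusted p = 0.0503). It passed without female vehicle mouse 1-1 (0.0326) or 1-4 (0.0384) or male vehicle mouse 1-3 (0.0194), and with RLE factors (0.0458), DESeq2 (0.0171), limma-voom (0.0480), limma-voom with sample weights (0.00500) and the vehicle libraries fitted alone (0.0392). Casq1 and Pvalb had log2 fold changes of -0.01 ± 0.23 and -0.01 ± 0.16 between the sexes (edgeR adjusted p = 0.986 and 0.977).

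Within libraries, Casq2 made up 0.696% of calsequestrin transcripts in male vehicle and 1.23% in female vehicle mice, a difference of -0.53 points (exact two-sided permutation p = 0.0433, adjusted 0.0974). Sln plus Pln per pump transcript was 0.0416% in male vehicle and 0.123% in female vehicle mice (exact p = 0.0325, adjusted 0.0974), and with the GENCODE M21 lengths 0.0218% and 0.0540% (exact p = 0.0411, adjusted 0.0974). Without male vehicle mouse 1-3 the difference in the Casq2 share was -0.65 points and passed, and without female vehicle mouse 1-4 that in Sln plus Pln was -0.0991 points and passed (adjusted exact p = 0.0455 in each). The Atp2a2 share differed by -0.318 points (adjusted exact p = 0.351).

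Genes of the slow-fibre sarcomere had lower values in male vehicle mice as well. Summed over 10 genes, they were at 367 to 1900 CPM in male vehicle and at 974 to 4478 CPM in female vehicle mice, with a median log2 fold change of -1.0. In edgeR 0 of the 10 were called, with 7 at an unadjusted p under 0.05, while DESeq2 called 2 lower, limma-voom 1 and limma-voom with sample weights 5. Myh7, the slow myosin heavy chain, was at 76.2, 367 and 738 CPM in male vehicle and at 345, 678 and 1656 CPM in female vehicle mice (lowest, median, highest). With LLC1 the slow-fibre sums were 1764 to 3320 CPM in females and 394 to 2076 CPM in males, with medians of 0.11 in each sex. In either sex 0 of the 10 were called by edgeR, DESeq2, limma-voom or limma-voom with sample weights, and 0 had an unadjusted p under 0.05 in edgeR. The 5 Schwann cell markers were all lower in male vehicle mice, at summed levels of 45.1 to 97.4 CPM against 75.7 to 232 CPM in female vehicle mice, ranges that overlap. Of the 5 cardiac markers tested, 2 were lower in male vehicle mice, Myl4 and Tnni3. Beside these counts, 2.95% of all genes were called lower in male vehicle mice. The part of these markers in the sex differences was not tested.

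Among fast-fibre sarcomere genes, 2 of 10 were called lower with LLC1 in females and 3 in males, beside 4.95% and 16.8% of all genes. Myl1, an essential myosin light chain of fast fibres, fell by 0.72 ± 0.14 in females and by 0.66 ± 0.14 in males on the log2 scale (SE, edgeR adjusted p = 0.00226 and 0.00127). Mylpf, the fast regulatory light chain, fell by 0.56 ± 0.14 and 0.50 ± 0.14 (adjusted p = 0.0139 and 0.00841). Myh4, the heavy chain of the fastest fibres, had log2 fold changes of -0.11 ± 0.13 and -0.30 ± 0.13 (edgeR adjusted p = 0.646 and 0.0743). The fall of Casq1 and Pvalb stood beside a fall of these 2 light chains. Myl1 and Mylpf were the 2 fast-fibre genes called in females and 2 of the 3 called in males. Of the 10 fast-fibre genes, 8 in females and 7 in males were not called, Myh4 among them. Their median log2 fold change was -0.14 in females and -0.30 in males. A difference between light and heavy chains was not tested.

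The members fell into sets whose levels varied together from mouse to mouse. Likeness was Pearson's r of log2 CPM over the 24 libraries after the group means were taken off, so it describes differences between mice of the same group, who share a group mean, a lane and a depth that differs by library. Casq1 and Pvalb had an r of 0.84. Cacna1s, Ryr1, Jph1 and Atp2a1 formed another set, with r of 0.93 for Cacna1s and Atp2a1, 0.88 for Ryr1 and Atp2a1, and 0.86 for Cacna1s and Jph1. Atp2a2 and Casq2 were at 0.77, Casq2 and Sln at 0.66 and Atp2a2 and Sln at 0.63. The first 2 sets were not separate, with r of 0.65 for Casq1 and Jph1, 0.56 for Casq1 and Cacna1s and for Pvalb and Jph1, and 0.44 for Casq1 and Atp2a1, though 0.08 for Casq1 and Ryr1. Atp2a2, Casq2 and Sln ran from -0.62 (Ryr1 and Casq2) to -0.21 (Jph1 and Sln) against the set of Cacna1s, and Pln had no r above 0.36 with any other member.

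**Figure D5:**
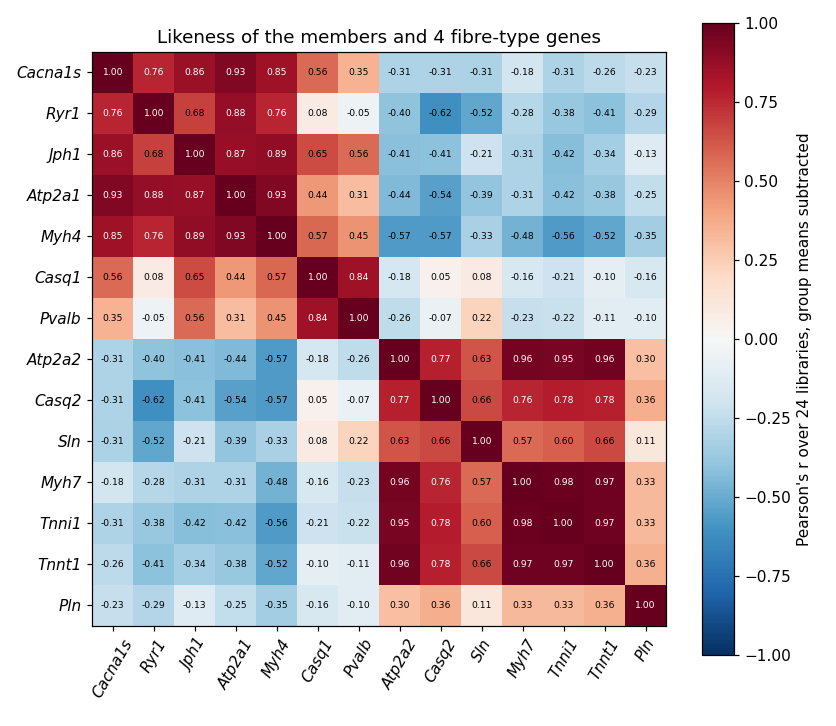
Pearson's r of log2 CPM over 24 libraries with group means subtracted, for the 10 genes and for Myh4, Myh7, Tnni1 and Tnnt1 (colour scale from -1 to 1). The blocks of high r hold Cacna1s, Ryr1, Jph1, Atp2a1 and Myh4, then Casq1 and Pvalb, then Atp2a2, Casq2, Sln and the slow-fibre genes.

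Of all genes tested, those most like Atp2a2 were the slow troponin gene Tnnt1 (0.96), the slow myosin gene Myh7 (0.96) and Gm29015, an antisense transcript at the Myh7 locus (0.95). Those most like Casq2 were Pdlim1 (0.90), Myom3 (0.89) and Inpp5j (0.86). For Atp2a1 they included Myh4 (0.93), and Rabep2 at 0.96, which lies on the opposite strand and overlaps 21.9% of the Atp2a1 exons. For Cacna1s, after Atp2a1, they were Ube3b (0.92) and Wdtc1 (0.91). Jph1 was most like Pygm, which encodes muscle glycogen phosphorylase (0.93), Msrb3 (0.90) and Myh4 (0.89).

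Casq1 was most like Gm17224, an antisense transcript within its own locus (0.998), then Eno3, the muscle enolase (0.97), and Ak1, the adenylate kinase of muscle (0.97). Gm17224 overlaps 8.00% of the Casq1 exons and held 0.154 counts for each Casq1 count, and without strand their reads cannot be told apart. Pvalb was most like Myl1 (0.96), Ube2c (0.96) and the fast troponin gene Tnnc2 (0.96). Ube2c overlaps Tnnc2 on the opposite strand, so these last 2 are not separate measurements. Ryr1 was most like its own antisense transcript Gm26604 (0.98), then Ubap2 (0.94) and Sptb, a spectrin (0.92). The highest r of Sln was 0.75, with Higd1b, and that of Pln 0.75, with Gm8894. Cacna1s also overlaps an antisense transcript, Gm37759, over 19.98% of its exons, with 0.151 counts for each of its own.

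Beyond the 10 members, 70 of 73 other listed genes of calcium handling were found and tested. In females 1 was called higher and 2 lower by edgeR, and in males 5 were called higher and 23 lower. That was 4.29% of the 70 in females, under the 9.92% of all genes called, and 40.0% in males, near the 36.3% of all genes, while 32.9% of the 70 were called lower in males, beside 16.8% of all genes. The male minus female difference was called by edgeR for 0 of the 70, with 7 at an unadjusted p under 0.05, and DESeq2, limma-voom and limma-voom with sample weights also called 0. In females DESeq2 called 1 of the 70 higher and 8 lower, beside 2262 called of all 17773 genes. Limma-voom with sample weights called 2 higher and 17 lower, beside 4046 of all genes. With neither of these tools did the share of the 70 lie under that of all genes. In the triad list, which covers the junction and the proteins around the release channel, 2 of 24 were called lower in females, and 3 were called higher and 8 lower in males. The median log2 fold change of that list was -0.08 in females and -0.22 in males, beside -0.01 and 0.01 over all genes.

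Sypl2, which encodes mitsugumin-29 of the triad membrane, was at 225 ± 58.8 CPM in female LLC1 and 408 ± 30.1 CPM in female vehicle mice, and at 153 ± 84.3 CPM in male LLC1 and 372 ± 16.2 CPM in male vehicle mice (SD, n = 6 each). It fell by 0.86 ± 0.27 in females and by 1.28 ± 0.28 in males on the log2 scale (SE, edgeR adjusted p = 0.0483 and 0.00131). The female call of Sypl2 was lost without any 1 of the 12 female libraries but LLC1 mouse 2-5, with edgeR adjusted p of 0.0689 to 0.123. Sypl2 missed the threshold in females with limma-voom as well (adjusted p = 0.0558), as it did in edgeR when low counts were not filtered (0.11). Hrc, the histidine-rich calcium-binding protein of the reticulum, fell by 0.37 ± 0.10 in females (edgeR adjusted p = 0.0246). That call of Hrc was lost on leaving out female vehicle mouse 1-3 (0.0577), 2-1 (0.0717), 2-2 (0.0547) or 2-3 (0.0616), and likewise LLC1 mouse 1-4 (0.0843), 1-5 (0.0761) or 2-3 (0.0985) of that sex. Male mice had Hrc at 559 ± 97.7 CPM with LLC1 and 768 ± 62.1 CPM with vehicle (SD, n = 6 each). The male fall was called in all the settings tried, with log2 fold changes of -0.53 to -0.39. Adjusted p ran from 7.06e-05 to 0.0193 over these edgeR, DESeq2 and limma-voom fits.

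In males the second junctophilin, Jph2, fell by 0.87 ± 0.23 to 317 ± 141 CPM with LLC1, against 579 ± 42.6 CPM with vehicle (SE of the log2 fold change, edgeR adjusted p = 0.00517; SD, n = 6 each). Ank1, whose small muscle form anchors the reticulum to the myofibril, fell by 0.85 ± 0.21 (edgeR adjusted p = 0.00306). In females Ank1 was at 297 to 382 CPM with LLC1 and 430 to 539 CPM with vehicle, without overlap, and its log2 fold change of -0.56 ± 0.21 did not pass in edgeR (adjusted p = 0.0839). It passed with limma-voom and sample weights (0.00773) and with the female libraries fitted alone (5.01e-04). Tmem38b, a TRIC cation channel of the reticulum, rose by 0.63 ± 0.13 in males to 112 ± 32.1 CPM with LLC1, against 72.3 ± 3.84 CPM with vehicle (edgeR adjusted p = 0.00101). Cacng1, the gamma subunit of the voltage-sensor complex, rose by 0.50 ± 0.12 in males (edgeR adjusted p = 0.00287), while its partner Cacna1s fell. Neither Tmem38b nor Cacng1 was called by edgeR in females. Tmem38b passed there with limma-voom and sample weights (0.31, adjusted p = 0.0322) and with the female libraries fitted alone (0.32, 0.0413). Cacng1 passed there with library size alone (0.34, adjusted p = 0.0384) and with the female libraries fitted alone (0.33, 0.0478). Mtm1, the myotubularin gene, rose by 0.23 ± 0.08 in males (edgeR adjusted p = 0.0353). That call of Mtm1 was lost without male LLC1 mouse 1-5 (0.128), 2-1 (0.0645) or 2-4 (0.0582), or male vehicle mouse 1-1 (0.0539), 1-3 (0.10) or 1-4 (0.0883). Further settings that lost it were limma-voom with sample weights (0.0636), no filter on low counts (0.0768) and the male libraries fitted alone (0.0803).

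Of 8 other calcium pumps, exchangers and pump regulators tested, edgeR called 0 in females, with 1 at an unadjusted p under 0.05, while DESeq2 called 1 lower, limma-voom 0 and limma-voom with sample weights 2 lower. In males edgeR called 1 higher and 1 lower, 25% of the 8 beside 36.3% of all genes. Atp2b3, a calcium pump of the plasma membrane, fell by 0.60 ± 0.16 in males (SE, edgeR adjusted p = 0.00475). Atp2b3 was not called by edgeR in females. It passed there with DESeq2 (-0.45, adjusted p = 0.0457), limma-voom with sample weights (-0.48, 0.00422) and the female libraries fitted alone (-0.45, 0.00724). Slc8a1, the sodium-calcium exchanger NCX1, rose by 0.44 ± 0.15 in males (edgeR adjusted p = 0.0261). That call of Slc8a1 was lost without male LLC1 mouse 2-2 (0.0533) or 2-4 (0.0860), or male vehicle mouse 1-3 (0.0672) or 2-4 (0.0670). Mrln, which encodes myoregulin, another peptide inhibitor of SERCA, had log2 fold changes of -0.29 ± 0.15 in females and 0.09 ± 0.15 in males (edgeR adjusted p = 0.224 and 0.683). Between vehicle mice of the sexes 1 of the 70 genes was called by edgeR, beside 6.23% of all genes. It was Ryr3, a ryanodine receptor form of low abundance in adult muscle, at 3.04 ± 0.717 CPM in male vehicle and 1.25 ± 0.200 CPM in female vehicle mice (log2 fold change 1.27 ± 0.21, edgeR adjusted p = 4.44e-04).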

How the data were processed

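Gastrocnemius RNA of 24 C57BL6 mice was sequenced in 4 groups of 6, grouped by title. The deposited table gives whole-number read counts per gene, not normalized. The submitters' processing notes name CASAVA, STAR, featureCounts and the build mm10. For versions, annotation release and the handling of reads over overlapping genes, the sources used here give nothing. Libraries were made from poly(A) RNA with 12 PCR cycles and version 2 of the TruSeq kit, per the labels' protocols, without strand. PCR copies were counted without molecular identifiers and are not independent molecules.

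Counts as deposited went into edgeR 4.0.16 (R 4.3.3) and its quasi-likelihood F-test: TMM factors (0.924 to 1.10), filterByExpr, robust dispersions, 4 group means over all 24 libraries and 20 residual degrees of freedom. Benjamini-Hochberg adjustment ran over the 17773 genes of a comparison, with calls under 0.05. The SE of a log2 fold change follows from its F statistic. Comparisons were LLC1 against vehicle within each sex, the difference of these effects, and male against female vehicle. LLC1 and sex comparisons that use the same vehicle mice share those samples. Transcript shares and ratios used CPM per kilobase of the table's exon length and exact two-sided permutation tests over mice (924 splits), adjusted over 9 tests.

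No library repeated another of its group (chi-square per degree of freedom 10.05 to 211 over 60 pairs). The fit was tested on simulated counts. Alternatives were RLE factors, library size alone, no filter, DESeq2 1.42.0, limma 3.58.1 voom with and without sample weights, only the groups compared, replicate blocks and leaving out each library. Members, lists, the rule for named genes (of each calcium list, up to 3 called genes in each direction with the largest change) and tests were chosen with earlier results of these data known. Mrln, Mcub and Selenon were matched by Ensembl identifier, and 3 listed genes were not matched. A gene that the rule names is not reported here.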

Additional observations from a re-analysis of the deposited data

Results flagged for a closer look

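In 6 of 52 groups of values screened, 1 mouse lay far from the other 5 of its group by Dixon's criterion, a gap that chance gives in about 1 in 20 groups. For Casq1, female LLC1 mouse 2-5 was at 2752 CPM, with the nearest mouse at 1757 CPM. For Pvalb, male vehicle mouse 1-2 was at 10771 CPM, with the nearest at 8672 CPM. For Sln, male LLC1 mouse 2-1 was at 4.25 CPM, with the nearest at 2.08 CPM. Also for Sln, male vehicle mouse 1-3 was at 3.03 CPM, with the nearest at 1.37 CPM. The share of Atp2a2 in the pump transcripts was 1.49% in female LLC1 mouse 2-1, with the nearest at 0.820%. Sln plus Pln per pump transcript was 0.0902% in male vehicle mouse 1-3, with the nearest at 0.0439%.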

How the results depend on the processing

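Of 950 member values under alternatives, 848 kept direction and call, 16 gained and 28 lost a call, and 58 changed sign, none of them called on either side. Members called in females numbered 2 and in males 4. With the full title number as replicate block they were 0 and 1, Casq1 in males being kept, and 0 between the sexes. Same-numbered LLC1 and vehicle libraries of a sex did not vary together (correlations -0.17 to 0.06). Differently numbered libraries and those of the other sex were not compared, so pairing by number is not settled. The first title number as replicate block changed no member's LLC1 call. Between vehicle mice the main count of 1 was 2 with RLE factors, library size alone or the first-number block, 3 with DESeq2, limma-voom or weighted limma-voom, and 0 with no filter. Leaving out 1 library gave 1 to 2 members in females and 0 to 3 between the sexes.

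Sign changes as log2 fold changes were, with library size alone, Ryr1 0.026 and Atp2a1 0.040 in males and Atp2a1 -0.050 between sexes; with limma-voom, Sln 0.034 in females and Rcan1 -0.013 in males; with weights, Jph1 -0.040 and Mtm1 -0.015 in females and Ryr1 0.0063, Atp2a1 0.0027 and Pln -0.17 in males; with no filter, Casq1 0.0029 and Pvalb 0.0017 between sexes. The full-number block gave Sln 0.48 and Mtm1 -0.063 in females, Ryr1 0.034, Atp2a1 0.041 and Rcan1 -0.024 in males, Casq2 -0.16 for the interaction, and Atp2a1 -0.044 and Pln 0.12 between sexes. The first-number block gave Jph1 -0.015 in females and Casq1 0.015 and Pvalb 0.020 between sexes. The settings of other calcium genes and the GENCODE M21 lengths were added after seeing the data, and these lengths kept direction and call in all 9 share and ratio tests.

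Without 1 library, ranges that crossed 0 were, in females, Atp2a2 -0.0028 to 0.37, Sln -0.38 to 0.31, Jph1 -0.034 to 0.064, Mcu -0.0095 to 0.080 and Mtm1 -0.030 to 0.060. In males they were Ryr1 -0.083 to 0.033, Atp2a1 -0.079 to 0.033, Atp2a2 -0.33 to 0.0098, Pln -0.11 to 0.23 and Rcan1 -0.15 to 0.12. For the interaction they were Casq1 -0.36 to 0.0074, Casq2 -0.088 to 0.33 and Pln -0.25 to 0.096. Between sexes they were Casq1 -0.064 to 0.039, Pvalb -0.087 to 0.034 and Pln -0.24 to 0.089. In points, the Atp2a2 share ranged from -0.137 to 0.151 in females and -0.122 to 0.0440 in males, and Sln plus Pln from -0.0428 to 0.00952 in females and -0.0991 to -0.0468 between sexes. The Casq2 share ranged from 1.28 to 1.77 in females, 1.06 to 1.55 in males and -0.654 to -0.376 between sexes.

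Over all genes, 1763 were called in females, against 4046 with weighted limma-voom, 480 with the full-number block, 919 without female LLC1 mouse 2-3 and 1100 without female vehicle mouse 2-1. In males 6449 were called, against 3607 with the full-number block. Between sexes 1107 were called, against 2475 weighted, 269 with the full-number block, 731 without female vehicle mouse 2-2 and 659 without male vehicle mouse 2-5. The cause of these changes was not tested. Sln and Pln rest on at most 470 counts per library, which limits what can be seen of them.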

Other observations

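Of 46 other calcium genes away from the triad, edgeR called 2 higher and 15 lower with LLC1 in males, 37.0% of them beside 36.3% of all genes, and 32.6% called lower beside 16.8% of all genes. In females it called 1 of the 46, 2.17% beside 9.92% of all genes. The male minus female difference was called for 0 of the 46 by edgeR, with 6 at an unadjusted p under 0.05, and for 0 by DESeq2, limma-voom and limma-voom with sample weights. Of 8 genes of store-operated calcium entry, which refills the reticulum from outside the fibre, 1 was called higher and 3 lower in males by edgeR. That was 50% called and 37.5% called lower, beside 36.3% and 16.8% of all genes. Stim1, the reticulum's calcium sensor, was at 156 ± 24.5 CPM in male LLC1 and 205 ± 13.3 CPM in male vehicle mice (SD, n = 6 each), a log2 fold change of -0.40 ± 0.09 (SE, edgeR adjusted p = 0.00135). The channel gene Orai1 fell by 0.38 ± 0.12 and the selenoprotein gene Selenon by 0.59 ± 0.15, while Orai2 rose by 0.67 ± 0.19 (edgeR adjusted p = 0.0184, 0.00330 and 0.00815). The call of Orai1 was lost without male LLC1 mouse 1-5 (0.0545), 2-1 (0.0504) or 2-4 (0.0568). In females edgeR called 0 of the 8, with 1 at an unadjusted p under 0.05, DESeq2 and limma-voom called 0, and limma-voom with sample weights called 1 lower, Stim1 (-0.22, adjusted p = 0.0183). Orai2 passed in females with the first-number block (0.48, edgeR adjusted p = 0.0404). The male minus female difference was called by edgeR for 0 of the 8, with 2 at an unadjusted p under 0.05, and by DESeq2 and limma-voom for 0.

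Of 12 genes of mitochondrial calcium uptake, 5 were called lower and 0 higher in males. That was 41.7%, beside 36.3% of all genes called and 16.8% called lower. Among the 5 were the uniporter Mcu (-0.35 ± 0.11) and the outer membrane channel Vdac1 (-0.24 ± 0.08, edgeR adjusted p = 0.0191 and 0.0213). Vdac1 in females, not called by edgeR, had log2 fold changes of -0.30 to -0.17 over the settings tried. It passed there with DESeq2 (-0.21, adjusted p = 0.0404), limma-voom with sample weights (-0.30, 0.00149), library size alone (-0.20, 0.0403) and the first-number block (-0.24, 0.0395). The Mcu call was lost without male LLC1 mouse 1-5 (0.0528) or 2-1 (0.0546) and with the male libraries fitted alone (0.055), and that of Vdac1 without male vehicle mouse 2-4 (0.0502). In females edgeR called 0 of the 12, with 4 at an unadjusted p under 0.05, while DESeq2 called 2 lower, limma-voom 0 and limma-voom with sample weights 4 lower. Of 18 genes of calcium-dependent signalling, 6 were called lower and 0 higher in males, beside 36.3% of all genes called and 16.8% called lower. The 6 were led by Calm2, a calmodulin gene (-1.01 ± 0.18, edgeR adjusted p = 2.93e-04), Camk2a, a calmodulin-dependent kinase (-0.71 ± 0.21, 0.00974), and the transcription factor gene Mef2c (-0.69 ± 0.17, 0.00374). The Camk2a call was lost with the male libraries fitted alone (0.0546). Camk2a was not called in females, and passed there with the female libraries fitted alone (-0.27, edgeR adjusted p = 0.0361). In females edgeR called 1 of the 18, Rcan1, an inhibitor of calcineurin, which rose by 0.84 ± 0.23 to 86.9 ± 27 CPM with LLC1, against 48.7 ± 7.94 CPM with vehicle (edgeR adjusted p = 0.0217). That call was lost without female LLC1 mouse 2-1 (0.0612). Calm2 was at 71.9 to 105 CPM in female LLC1 and 112 to 147 CPM in female vehicle mice, without overlap, and its log2 fold change of -0.52 ± 0.18 did not pass in edgeR (adjusted p = 0.0640). It passed with DESeq2 (0.0399), limma-voom with sample weights (0.0105) and the female libraries fitted alone (0.00317), and edgeR did not call its male minus female difference of -0.48 ± 0.25 (adjusted p = 0.433).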
